A study of Sus scrofa with 2 samples.

Results

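The brain and the liver of the Rongchang pig were compared over 10 genes that mark blood vessel endothelium and its pericytes. They fall into 3 groups. CLDN5, MFSD2A and RGS5 mark the vessels of the blood-brain barrier (RGS5 their pericytes), FLT1, TEK, PECAM1 and KDR are shared by endothelium of most organs, and STAB1, STAB2 and FCN2 are known from the liver sinusoid. The genes were taken by symbol, or by the protein's name in the product text where the row carried only a numbered locus. This gave 11 rows for 10 of the 21441 genes in the table. STAB1 came from a row described as a stabilin-1-like protein, and TEK was the sum of its own row and an adjacent row for an angiopoietin-1 receptor-like protein. All 10 passed the filter of 1 CPM (scaled counts per 1000000) in at least 1 library, as did 15569 genes in all.

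Rongchang is a Chinese domestic pig breed. RNA from frozen pieces of whole brain or liver tissue was sequenced, with 1 library per tissue, 23796843 counts in brain and 31724498 in liver. Neither sample carried a stated treatment. The labels state no brain region, age, sex or number of animals, nor whether 1 animal gave both tissues. They also do not say that the pieces were kept free of large vessels or blood. The titles of both samples carry the same lane and barcode text. Marker genes went with the tissue labels. All 9 measured neuronal genes were 4-fold or more higher in brain, and all 10 measured hepatocyte genes were 4-fold or more higher in liver. Of 8 astrocyte genes, 6 were 4-fold or more higher in brain and 1 in liver. With 1 library per tissue there was no replicate check and no test, so every interval covers counting error only. In whole tissue, fewer cells of a type and less RNA per cell cannot be told apart.

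Endothelial cells differ between organs. In brain they are sealed by tight junctions, make few transport vesicles and are closely covered by pericytes, which together form the blood-brain barrier. In liver the sinusoidal endothelium has open pores and no continuous basement membrane, and clears waste macromolecules from blood through scavenger receptors. Both kinds depend on the vascular endothelial growth factor (VEGF) and angiopoietin receptors.

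The groups went different ways. Of the 10 genes, 2 were 4-fold or more higher in brain, CLDN5 and RGS5, where 14.6% of all tested genes were that far toward brain. Another 6 were 4-fold or more higher in liver, TEK, PECAM1, KDR, STAB1, STAB2 and FCN2, where 11.3% of all tested genes were that far toward liver. FLT1 and MFSD2A lay near equality, slightly toward liver with this scaling and toward brain with plain library size. The genes were picked as known markers, with earlier results of these data in view, so these counts describe the 2 libraries.

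**Figure D1:**
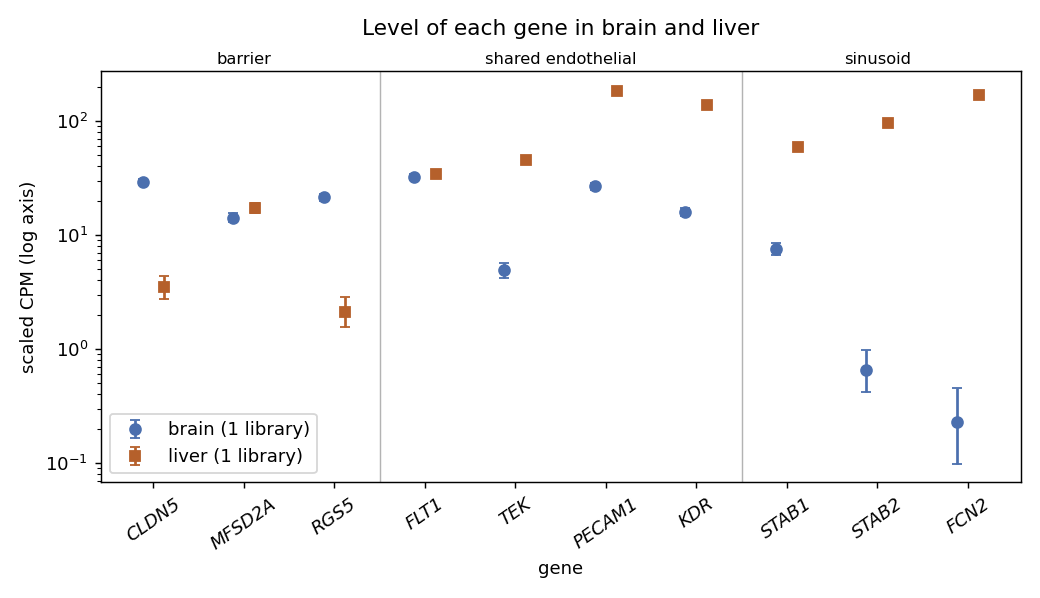
Scaled CPM on a log axis for each of the 10 genes, in the brain library (circles) and the liver library (squares), with 95% Poisson intervals for counting error. Brain lies above liver for CLDN5 (29.2 against 3.52) and RGS5 (21.5 against 2.13), and below it for all of the sinusoid genes. Heights of different genes are not corrected for transcript length and are not comparable.

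CLDN5 encodes claudin-5, the main tight junction protein of brain endothelium. It had 1021 counts in brain and 76 in liver, equal to 29.2 and 3.52 CPM. The brain level was 8.31-fold higher (95% interval 6.58 to 10.6).

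RGS5 encodes a regulator of G-protein signalling that is a common marker of pericytes. It had 751 brain counts and 46 liver counts, equal to 21.5 and 2.13 CPM, which made it 10.1-fold higher in brain (7.49 to 13.9). The counting intervals of the 2 libraries did not overlap for either CLDN5 or RGS5. The share of all genes with such intervals was not counted. The ratio of RGS5 to CLDN5 counts was 0.736 in brain and 0.605 in liver, and the interval of the brain over liver quotient (0.821 to 1.82) included 1. In the numbering of the table, the rows just before and after RGS5 had 614 and 1919 brain counts and 97 and 52 liver counts. Whether reads are shared between these rows was not tested.

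MFSD2A, the lipid transporter that carries docosahexaenoic acid across the barrier and is also known from liver, did not follow the other barrier genes. Its 497 brain counts and 375 liver counts were 14.2 and 17.4 CPM. The liver level was 1.22-fold higher (1.06 to 1.40). With plain library size in place of TMM scaling, brain was 1.77-fold higher (1.54 to 2.03), so its direction depended on the scaling. The ratio of MFSD2A to CLDN5 counts, which no scaling affects, was 0.487 in brain and 4.93 in liver.

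Among the shared endothelial genes, PECAM1, KDR and TEK were higher in liver. PECAM1, which encodes the adhesion molecule CD31 at endothelial cell contacts, had 935 brain and 3930 liver counts. At 26.8 against 182 CPM it was 6.80-fold higher in liver (6.33 to 7.31). KDR, the main signalling receptor for VEGF (VEGFR2), had 559 and 2970 counts, or 16 and 137 CPM. Liver was 8.59-fold higher (7.85 to 9.42).

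TEK encodes the angiopoietin receptor TIE2. It had 172 brain counts and 993 liver counts, 4.92 against 46.0 CPM. That was 9.33-fold higher in liver (7.93 to 11). The counting intervals of brain and liver were far apart for all of PECAM1, KDR and TEK, again without a share over all genes.

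FLT1, the VEGF receptor that binds its ligand tightly but signals weakly (VEGFR1), had 1134 counts in brain and 747 in liver. The scaled levels were 32.5 and 34.6 CPM, a brain over liver fold of 0.939 whose interval (0.855 to 1.03) included 1, while with plain library size brain was 2.02-fold higher (1.84 to 2.22).

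The balance of the 2 VEGF receptors differed between the libraries. Brain held 2.03 FLT1 counts per KDR count and liver 0.252. The brain over liver quotient was 8.07 (7.07 to 9.20), a value free of scaling. This pair was chosen after its values were seen. The ratio of TEK to KDR differed little, at 0.308 in brain and 0.334 in liver, and its quotient of 0.920 (0.760 to 1.11) included 1.

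Of the sinusoid genes, FCN2 and STAB2 had far fewer counts in brain than in liver, with STAB1 less so. FCN2 encodes ficolin-2, a soluble lectin that starts the lectin pathway of complement. It had 8 brain counts and 3673 liver counts, or 0.229 and 170 CPM. That is a 742-fold difference toward liver (376 to 1721). The neighbouring gene FCN1, the ficolin of myeloid cells, had 11 and 47 counts, given here after they were seen.

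STAB2 encodes stabilin-2, the hyaluronan scavenger receptor of sinusoidal endothelium. Its counts were 23 in brain and 2088 in liver, or 0.658 and 96.6 CPM, a 147-fold difference toward liver (97.6 to 232). A row 2 places from STAB2 in the table, described as a hypothetical protein, had 40 and 2232 counts. Whether it belongs to the same gene was not tested, and adding it gave a 111-fold difference (86.5 to 145). Albumin, a plasma protein of hepatocytes, had 1563 brain counts, 0.0262% of its liver count. At that percentage FCN2 would have 0.962 brain counts, against 8 measured, and STAB2 0.547, against 23. Albumin had the lowest such percentage of the measured hepatocyte genes, so another gene would give higher values. ASGR1 had 15 and 7271 counts and HNF4A 7 and 2174, both chosen after their values were seen. Whether any of these brain counts came from liver RNA was not tested.

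STAB1 encodes stabilin-1, a related scavenger receptor that macrophages also make. It had 266 brain and 1270 liver counts, 7.61 and 58.8 CPM. The fold toward liver was 7.72 (6.76 to 8.84). Brain thus held 11.6 STAB1 counts per STAB2 count and liver 0.608, a quotient of 19.0 (12.3 to 30.7) for a pair chosen after its values were seen. The macrophage list, with 13 measured genes, summed to 160 CPM in brain and 2186 in liver. Most of the liver sum came from CD5L, at 1066 CPM, and CD14, at 434, against 3.46 and 6.47 in brain. Of the list, 8 genes were 4-fold or more higher in liver and 0 in brain, or 6 and 0 with plain library size. CSF1R on that list, the growth factor receptor of microglia and macrophages, had 73.8 CPM in brain and 60.9 in liver. It was chosen after its values were seen. CD163, a scavenger receptor of tissue macrophages, had 0.572 and 94.4. The part of macrophages in the STAB1 counts was not tested.

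Ordered from brain to liver by fold, the genes ran RGS5, CLDN5, FLT1, MFSD2A, PECAM1, STAB1, KDR, TEK, STAB2 and FCN2. This order does not depend on scaling. Neighbours differed beyond counting error at 4 of the 9 steps, between CLDN5 and FLT1, MFSD2A and PECAM1, TEK and STAB2, and STAB2 and FCN2. STAB1 therefore stood among the shared endothelial genes and not with the other sinusoid genes. The intervals for PECAM1 against STAB1 (0.976 to 1.33), STAB1 against KDR (0.944 to 1.31) and KDR against TEK (0.900 to 1.32) all included 1. Of all tested genes, 9.30% had a higher ratio than RGS5 and 9.83% a higher one than CLDN5, whereas 1.56% had a lower ratio than STAB2 and 0.918% a lower one than FCN2. FLT1 and MFSD2A sat mid-range, with 47.2% and 42.3% of genes below them.

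Scaling moved all genes together. TMM, which corrects for the large share of liver counts taken by a few transcripts, put the median log2 ratio of all tested genes at 0.02. Plain library size put it at 0.98, a shift toward brain. With plain library size 24.1% of all genes were 4-fold or more higher in brain and 6.02% in liver. Measured from these medians, the log2 ratio of PECAM1 was -2.73 with TMM and -2.61 with plain library size, that of KDR -3.04 and -2.93, and that of CLDN5 2.73 and 2.71. FLT1 was at -0.10 and 0.01 and MFSD2A at -0.28 and -0.21. The scalings differ by a factor common to all genes, so centring removes it by construction, apart from effects of the pseudocount and filter. The closeness of these values is therefore no check of the scaling. Without this centring, plain library size left 2 genes 4-fold or more higher in liver, STAB2 and FCN2, and the same count of 2 in brain.

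**Figure D2:**
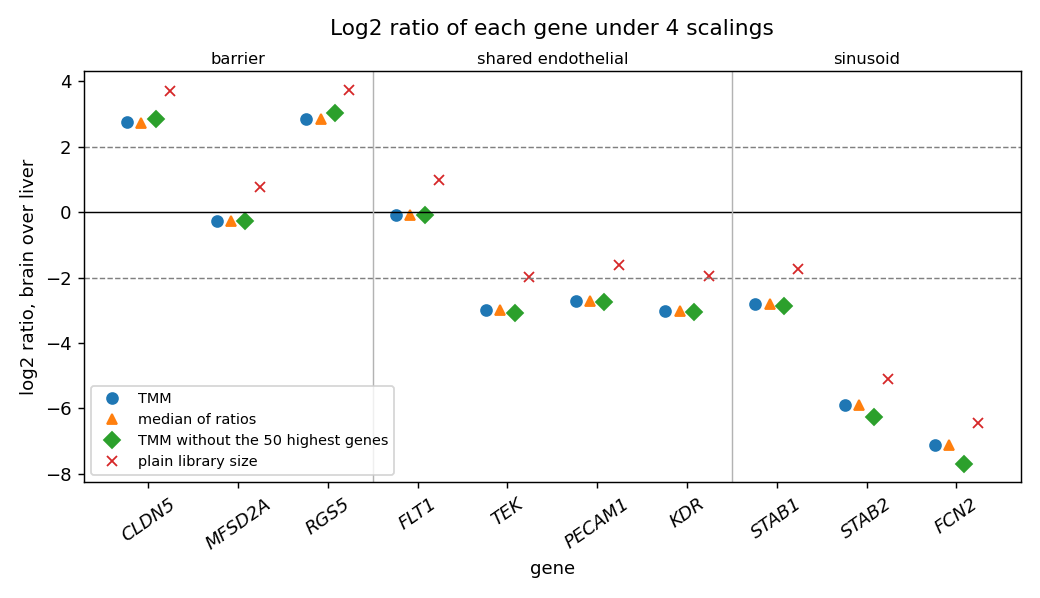
Log2 ratio of scaled CPM plus 1, brain over liver, for each of the 10 genes under 4 ways of scaling the libraries, with dashed lines at 4-fold. TMM, median-of-ratios scaling and TMM without the 50 highest genes lie close together. Plain library size moves every gene toward brain, FLT1 from -0.09 to 0.99 and MFSD2A from -0.27 to 0.77, and takes PECAM1, KDR, TEK and STAB1 inside the 4-fold lines.

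Set against PECAM1 within each library, the contrast no longer depended on scaling. Per 100 PECAM1 counts, CLDN5 had 109 counts in brain and 1.93 in liver, a 56.5-fold difference (44.1 to 73.0). For RGS5 the values were 80.3 and 1.17, a 68.6-fold difference (50.4 to 95.3). MFSD2A stood at 53.2 in brain and 9.54 in liver and FLT1 at 121 and 19.0, so both were higher per PECAM1 count in brain, by 5.57-fold (4.77 to 6.503) and 6.38-fold (5.67 to 7.18).

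KDR had 59.8 counts per 100 PECAM1 counts in brain and 75.6 in liver, a brain over liver quotient of 0.791 (0.704 to 0.889). TEK had 18.4 and 25.3, a quotient of 0.728 (0.606 to 0.871). STAB1 was at 28.4 and 32.3, and the interval of its quotient (0.755 to 1.02) included 1. STAB2 had 2.46 in brain and 53.1 in liver, a 21.6-fold difference toward liver (14.2 to 34.4), and FCN2 had 0.856 and 93.5, a 109-fold difference (55.1 to 254). PECAM1 is also found on platelets and leukocytes, and their part in its counts was not tested. The blood cell list, which lacks the platelet genes PF4 and PPBP (not analysed here), summed to 92.1 CPM in brain and 288 in liver. Most of that sum came from red cell genes, with HBB at 70.4 and 217 CPM and ALAS2 at 15.3 and 46.5. It is therefore no measure of platelets or leukocytes. The platelet genes on the list, ITGA2B and GP9, had 75 and 75 counts and 4 and 1. GP9 was chosen after its values were seen.

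A second reference was the sum of the other measured pan-endothelial genes, without ESAM, with 7802 brain and 11361 liver counts. It kept MFSD2A and FLT1 on the brain side, at 1.93-fold (1.68 to 2.22) and 2.21-fold (2.005 to 2.44). PECAM1 itself was 2.89-fold higher in liver (2.67 to 3.12) against this sum. KDR, TEK and STAB1 were 3.65-, 3.96- and 3.28-fold higher in liver against it. Their smaller differences were thus seen with PECAM1 as reference and not with this sum. The ESAM row was left out since it had 101896 brain counts against 150 in liver, a log2 ratio of 8.52, while the next highest of its list was S1PR1 at 1.64, chosen after its value was seen. With ESAM kept in the sum, the direction of MFSD2A and FLT1 turned, to 7.19-fold (6.26 to 8.25) and 6.28-fold (5.70 to 6.90) higher in liver, so their brain side against this sum depends on leaving out that row.

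**Figure D3:**
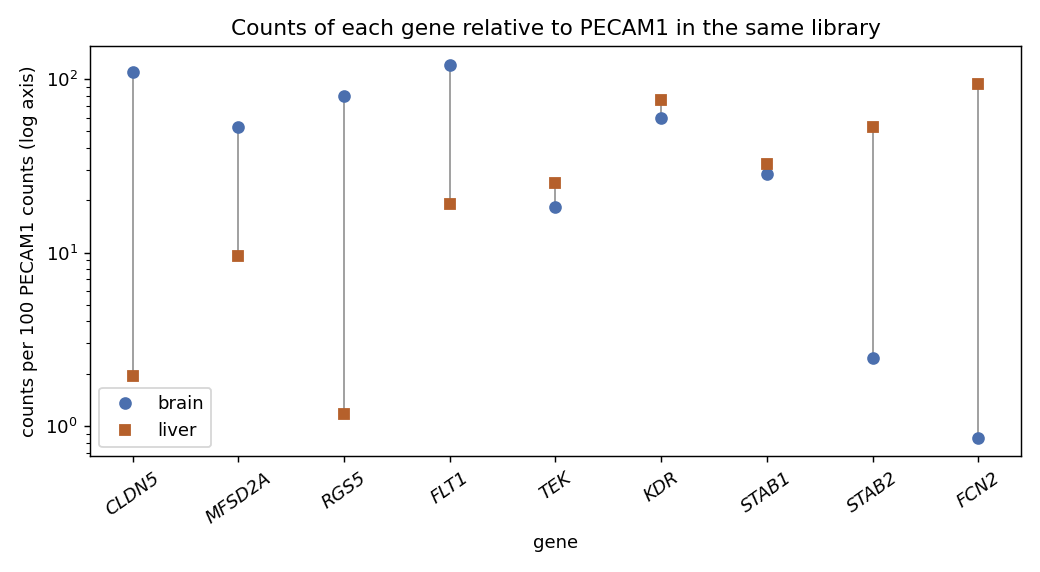
Counts of 9 genes per 100 PECAM1 counts of the same library on a log axis, brain as circles and liver as squares, joined by a line for each gene. CLDN5, MFSD2A, RGS5 and FLT1 are higher in brain, and STAB2 and FCN2 are higher in liver. For TEK, KDR and STAB1 the brain and liver points lie close together, with TEK and KDR slightly higher in liver. Heights of different genes are not comparable.

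The barrier genes took 42.3% of the counts of the 10 genes in brain (exact 95% interval 41.0 to 43.6) and 3.07% in liver (2.81 to 3.35). The sinusoid genes took 5.53% in brain (4.94 to 6.18) and 43.5% in liver (42.7 to 44.3). The shared genes took 52.2% and 53.4%. These shares are of counts, not corrected for transcript length.

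Besides FLT1, TEK, PECAM1 and KDR, 17 other genes of all blood endothelium were measured. Of these, 3 were 4-fold or more higher in liver and 1, ESAM, in brain, with a median log2 ratio of -0.89 against 0.02 for all tested genes. With plain library size it was 1 in liver and 3 in brain (median 0.34, against 0.98 for all genes). ENG, the endothelial co-receptor endoglin, had 21.9 CPM in brain and 123 in liver. CDH5, the endothelial cadherin, was not analysed here.

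CLDN5 was the 1 gene of the junction list toward brain by that margin. Of 13 measured genes for tight junctions and vesicle traffic, with CLDN5 and MFSD2A among them, 1 was 4-fold or more higher in brain and 4 were in liver, with a median of -1.54. Epithelial cells and hepatocytes use several of the same junction proteins. OCLN, occludin, had a log2 ratio of -1.60 (21.2 CPM in brain, 66.4 in liver) and TJP1, the scaffold ZO-1, of -0.10 (16.8 and 18.0), or 0.95 with plain library size. CGN, cingulin, was at -5.18 with 145 brain and 4016 liver counts. With plain library size 2 of the list were in liver and 1 in brain.

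Barrier transporters were divided as well. Of 13 measured genes, 3 were 4-fold or more higher in brain and 3 in liver, with a median of 0.07. SLCO1C1, the thyroid hormone carrier of brain endothelium and astrocytes, had 2534 counts in brain and 8 in liver. The efflux pump ABCB1 (-2.26), the lactate carrier SLC16A1 (-2.89) and the transferrin receptor TFRC (-3.70) were higher in liver, where they are known to be made too. Plain library size gave 5 in brain and 1, TFRC, in liver.

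Of 16 measured mural cell genes, 4 were 4-fold or more higher in brain, namely RGS5, HIGD1B, FOXF2 and ZIC1, and 2 in liver, ANPEP and VTN. Without RGS5 the median was -0.20, and 0.78 with plain library size. HIGD1B, another pericyte marker, had 174 and 4 counts. ABCC9 and KCNJ8 of the same list had 152 and 310 counts and 130 and 150. Their log2 ratios were -1.52 and -0.75 with TMM, and -0.54 and 0.17 with plain library size. ANPEP, a peptidase also of hepatocyte membranes, had 68 and 3169, and VTN, a plasma protein made by hepatocytes, 18 and 34723. The receptor PDGFRB, which pericytes and stellate cells share, was at 3.35 and 5.14 CPM, a log2 ratio of -0.50 with TMM and 0.40 with plain library size. Brain held 6.42 RGS5 counts per PDGFRB count and liver 0.414. MCAM had a log2 ratio of 0.47 and ACTA2, smooth muscle actin, of -1.46. HIGD1B, ABCC9, KCNJ8, ZIC1 and PDGFRB were chosen after their values were seen.

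The VEGF and angiopoietin pathway held 18 measured genes, of which 0 were 4-fold or more higher in brain and 4 in liver. Those 4 were KDR and TEK with VEGFA, the main KDR ligand, and FLT4, the receptor for VEGFC. The 15 genes other than FLT1, KDR and TEK had a median of -0.58. VEGFA had 66 brain and 673 liver counts (1.89 and 31.1 CPM) and FLT4 had 9 and 420, both chosen after their values were seen. VEGFB, a ligand of FLT1 and not of KDR, was level at 78.3 and 73.9 CPM, a log2 ratio of 0.08 (1.18 with plain library size). PTPRB, a phosphatase that restrains TEK, stood at 26.2 and 30.7, a ratio of -0.22 (0.85 with plain library size). TIE1, the partner receptor of TEK, was at 12.5 and 32.9 CPM, so that TEK counts per TIE1 count were 0.394 in brain and 1.39 in liver, again chosen afterwards. With plain library size 2 genes were in liver and 1 in brain, and the median of the others was 0.55.

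Wnt ligands from neural cells induce CLDN5 and other barrier genes in brain endothelium through beta-catenin. Of 14 measured genes of this pathway, 4 were 4-fold or more higher in brain and 2 in liver, with a median of 0.46. The ligand genes WNT7A (130 and 2 counts) and WNT7B (128 and 1) and the nuclear factor LEF1 (651 and 75), all chosen after their values were seen, were toward brain with APCDD1, a target gene at 60.5 against 9.996 CPM. The co-receptor genes LRP5 (-2.67) and TSPAN12 (-2.67) were toward liver. CTNNB1, beta-catenin itself, had -0.44 with TMM but 0.66 with plain library size. The other co-receptor LRP6 was at 1.05. Below 4-fold on the same list were AXIN2 (-0.21), NKD1 (0.75), ADGRA2 (0.08) and RECK (0.07), also chosen after their values were seen. Plain library size gave 5 in brain and 0 in liver. A pseudocount of 5 left 1 in brain, and a filter of 5 CPM left 2, with 2 in liver each time.

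Besides STAB1, STAB2 and FCN2, 17 other genes of the sinusoidal list were measured. Of these, 10 were 4-fold or more higher in liver and 2 in brain, with a median of -3.28. With plain library size it was 9 and 3. CLEC4G, the sinusoidal lectin LSECtin, had 0 counts in brain and 1819 in liver, and was at least 980-fold higher in liver with a floor of 3 counts in the brain library. This gene was chosen after its values were seen. OIT3, a secreted protein of sinusoidal endothelium, had 12 and 2143 counts, and MRC1, the mannose receptor that macrophages share, 177 and 4825. The protease gene CTSL, at 78 and 4098, is active in lysosomes of many cells. CRHBP (310 and 5 counts) and PCDH17 (424 and 25), both also known from neurons, went toward brain.

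**Figure D4:**
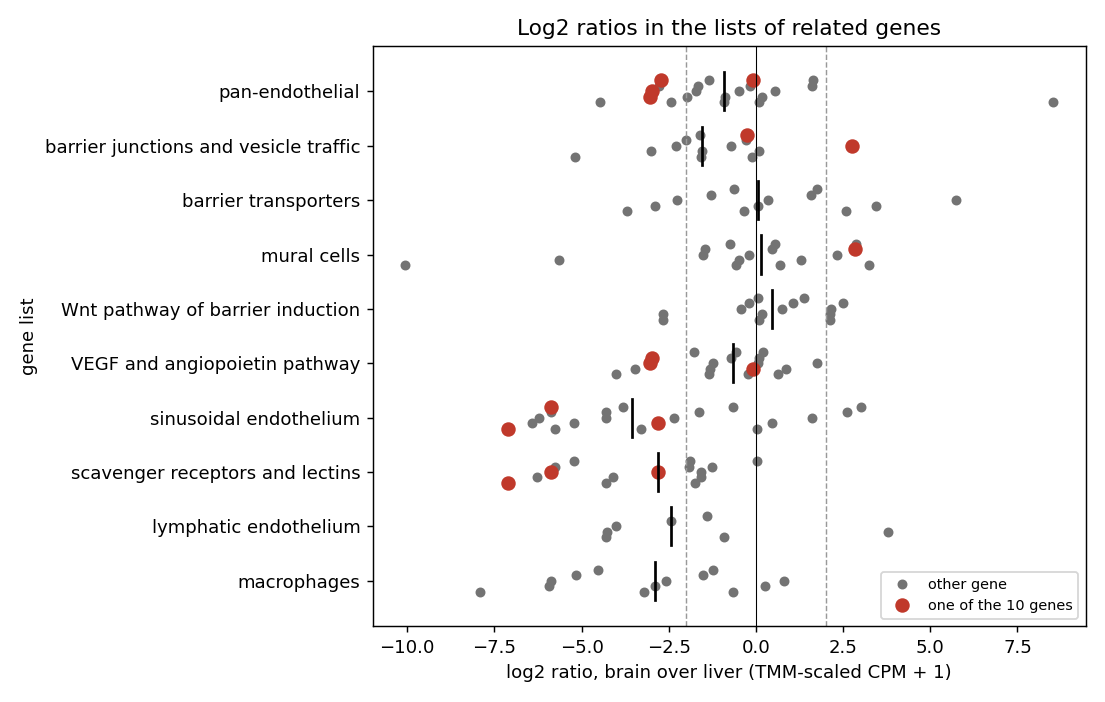
Log2 ratio of scaled CPM plus 1, brain over liver, for each measured gene of 10 lists, with the list's median as a black bar and dashed lines at 4-fold. Large red points are the 10 genes of the report. With these genes included, the sinusoidal list has its median at -3.54 and the junction list at -1.54, where CLDN5 alone lies beyond 4-fold toward brain.

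Over the 2 libraries, the list genes with the log2 ratio nearest to that of CLDN5 (2.74) were RGS5 (2.85), FOXF2 (2.87) and PCDH17 (2.61). Those nearest to STAB2 (-5.88) were CTSL (-5.88), the monocyte gene CD14 (-5.87) and CD163 (-5.92). Likeness over 2 libraries is a single number for each gene.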

How the data were processed

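RNA of brain and liver was analysed from 1 library each. The authors deposited raw counts per gene row in 1 table, which was read as counts from its whole numbers and unequal totals. Per the submitters' processing notes, TopHat aligned the reads to Sscrofa10.2 (also named susScr3). No counting program or strand setting is given in the sources used here, so reads of overlapping genes may be shared. The other column used is the gene length in bp deposited by the authors, which is of the size of a genomic span, so levels were not set per transcript length. Splice forms, such as soluble FLT1, are not resolved.

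Of 21817 rows, 7001 stayed unnamed (10.3% of brain and 6.34% of liver counts) and entered the totals. Names came from the table, or from a RefSeq gene table of Sscrofa11.1 by gene number (6594 rows), transcript accession (21 rows) or synonym (241 rows, 5 of them by hand). Rows of 1 gene were summed. TMM scaling by edgeR 4.0.16 under R 4.3.3 gave factors of 1.47 and 0.681, so 1 CPM equals 34.9 brain or 21.6 liver counts. The log2 ratio used a pseudocount of 1, which understates low genes, and 4-fold means a log2 ratio of 2 or -2. Folds were computed without the pseudocount, with exact conditional binomial 95% intervals (scipy 1.17.1), and quotients within libraries with exact conditional intervals. A gene at 0 in 1 library was set to a floor of 3 counts only for folds given as at least, and for the median given with the floor. Log2 ratios and 4-fold calls used the 0 count with the pseudocount.

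Members and the 18 lists (208 genes, 21 of them not analysed here) were chosen with earlier results of these data known. Names could be drawn from the 10 members, from each list up to 4 genes with the highest mean level and those 4-fold or more against their list's median, and the 3 nearest to CLDN5 and to STAB2. Some genes taken by this rule are not reported here. Any other gene is marked as chosen after its values were seen. On simulated counts for brain against liver over 21441 genes, 100 of 100 genes set 16-fold apart were called. Of genes set 2-fold apart 0 of 100 were called, and of unaltered genes 0 of 15028. Since 16-fold lies above the 4-fold rule and 2-fold below it, these outcomes mainly check that the rule was applied. They give no rate of false calls for the real libraries, where variation between animals could not be measured, and are no check of the scaling.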

Additional observations from a re-analysis of the deposited data

How the results depend on the processing

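Median-of-ratios scaling and the highest row per gene kept all 10 log2 ratios (pseudocount included) within their counting interval. TMM without the 50 highest genes did so for 8, and put STAB2 at -6.27 and FCN2 at -7.68. Of the 10 genes TEK alone is a sum of rows, so taking the highest row could move the others only through the scaling. A change of filter cannot alter a log2 ratio by construction, so neither other filter is a check of these ratios. Chosen after seeing the data, the neighbouring row added to STAB2 gave -6.16, and TEK from its symbol row alone left the counts at 2 in brain and 6 in liver. Plain library size reversed FLT1 (0.99) and MFSD2A (0.77). It put CLDN5 at 3.69, RGS5 at 3.73, TEK at -1.97, PECAM1 at -1.63, KDR at -1.95, STAB1 at -1.75, STAB2 at -5.09 and FCN2 at -6.45, which left 2 genes 4-fold or more higher in liver. A pseudocount of 5 put CLDN5 at 2.01, RGS5 at 1.89, TEK at -2.36, PECAM1 at -2.56, KDR at -2.76, STAB1 at -2.34, STAB2 at -4.17 and FCN2 at -5.06, with 1 gene left in brain. A pseudocount of 0.1 put CLDN5 at 3.02, RGS5 at 3.28, TEK at -3.20, STAB2 at -6.99 and FCN2 at -9.01. At a log2 ratio of 8-fold, pseudocount included, 0 of the 10 genes were called in brain and 3 in liver. That count depends on the pseudocount. Without it the folds were 8.31 for CLDN5 and 10.1 for RGS5 toward brain and 9.33 for TEK toward liver. The share of all tested genes at 8-fold was not counted, so these counts have no background. Against the pan-endothelial sum in place of PECAM1, the brain over liver quotient was 19.6 for CLDN5, 1.93 for MFSD2A, 23.8 for RGS5, 2.21 for FLT1, 0.252 for TEK, 0.274 for KDR, 0.305 for STAB1, 0.0160 for STAB2 and 0.00317 for FCN2. With ESAM kept in that sum, chosen after seeing the data, the quotients were 1.41, 0.139, 1.71, 0.159, 0.0182, 0.0198, 0.0220, 0.00116 and 0.000229 in the same order, and those of MFSD2A and FLT1 reversed. Over all genes, the count at 4-fold or more was 2279 in brain and 1767 in liver, 3819 and 953 with plain library size, and 1231 and 1116 with a pseudocount of 5. Of 36 list counts, 11 moved by over 1.5 times with plain library size, 8 with a pseudocount of 5, 3 with a pseudocount of 0.1, 3 without the 50 highest genes and 1 with a filter of 5 CPM. CDH5 as reference was not run, since the gene was not analysed here, and neither were levels per coding length. No replicate could be left out with 1 library per tissue, and no paired analysis was possible because each tissue has 1 library. The low brain counts of FCN2 (8) and STAB2 (23) limit the precision of their folds. The pseudocount pulls low genes toward 0.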

Other observations

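Scavenger receptors and lectins clear particles and microbes from blood. Besides STAB1, STAB2 and FCN2, 12 such genes were measured, of which 5 were 4-fold or more higher in liver and 0 in brain. Their median log2 ratio was -1.90. It was -3.01 with genes at 0 set to the floor and, unlike the other genes, taken without the pseudocount. These 2 medians are therefore not comparable. MBL2, the mannose-binding lectin that works in the same complement pathway as FCN2, had 0 brain and 1639 liver counts, at least 883-fold higher in liver. MBL2 was chosen after its values were seen. SCARB1, the receptor for high-density lipoprotein, had 46.3 CPM in brain and 178 in liver, a log2 ratio of -1.92, and of -0.82 with plain library size.

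Markers of lymphatic endothelium were mixed. Of 7 genes, 4 were 4-fold or more higher in liver, among them PROX1 (28 and 723 counts), a factor that hepatocytes also make, and LYVE1 (45 and 958), a hyaluronan receptor shared with the sinusoid. Plain library size left 3 in liver. PDPN, podoplanin, went toward brain with 835 and 17 counts. RELN, an extracellular matrix protein of neurons and stellate cells, had 781 and 930, a log2 ratio of -0.92 with TMM and 0.16 with plain library size.

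Of 12 genes of stellate cells and fibroblasts, RGS5 was the only one 4-fold or more higher in brain, and 4 were in liver, among them COL3A1 with 961 and 3132 counts. Plain library size made it 2 in brain and 3 in liver, with COL3A1 at -1.27. COL1A1 and COL1A2 were at 0.02 and 0.21 with TMM, and at 1.10 and 1.29 with plain library size. Of 5 measured blood cell genes, 1 was 4-fold or more higher in liver, SLC4A1, an anion exchanger of red cells, with 123 and 390 counts (0 with plain library size). HBB, a globin, had 2459 and 4697 counts and ALAS2, the heme enzyme of red cells, 534 and 1005.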
